A study of Mus musculus with 27 samples.

Results

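Mouse induced pluripotent stem (iPS) cells of the line H9, reprogrammed with 3 transcription factors and called 3F below, were measured after 11 days of differentiation and in the undifferentiated state. The comparison used 6 of the 27 arrays of the series: the 3 arrays titled as H9 cells differentiated to day 11 and the 3 arrays of undifferentiated H9 cells at day 0. It gives the net change over the whole course, and 3 arrays at day 5 show when a change was already present. The other lines of the series, used only where 3F differed from them, were 4F (19BL, an iPS line reprogrammed with 4 factors) and R1, an embryonic stem cell line, each with 3 arrays at the same days. Day 11 cells had differentiated spontaneously in embryoid bodies, floating cell aggregates in which all germ layers form, in medium with 20% serum and no LIF. Day 0 cells, in all 3 lines, had been kept on mitomycin-inactivated feeder cells with leukemia inhibitory factor (LIF), the cytokine that holds mouse stem cells in self-renewal. Each iPS group is a line with no independent line of the same kind beside it, which factors were used is not given in the sources used here, and the protocols do not record whether feeder cells were removed before RNA was extracted. The title of the series concerns how well iPS lines form heart tissue.

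Mouse pluripotent cells are held by a circuit around Pou5f1 (Oct4), Sox2 and Nanog. Once LIF is withdrawn, cells in embryoid bodies leave that state, pass through an epiblast-like and a primitive streak-like phase, and form a mixture that usually holds beating cardiomyocytes, endothelium, primitive blood, yolk sac-type endoderm and fibroblast-like stroma. The heart is laid down by mesoderm under transcription factors of the Gata, Hand, Tbx and Mef2 families, which switch on the genes of the sarcomere, the contractile unit of muscle. All values below are RMA log2 signals of Affymetrix probe sets, so a difference of 1 is a factor of 2. Each gene is read by its brightest probe set among those with 1 symbol. A gene was called when limma's adjusted p was under 0.05 and the change at least 2-fold, and "rose" and "fell" are used of called genes alone. The files used here carry no detection calls: a level under about 6.50, the limit used in the filter on dim genes, may be background, and a change to or from it is then a lower bound. Errors after ± are standard errors of a log2 change or, where marked, SDs over 3 arrays. The standard errors and adjusted p values rest on scatter pooled over all 9 groups, not on the 6 arrays compared. Replicate pairs of 3F day 11 scattered more (SD 0.514 to 0.702) than the median pair of the series (0.315). For single genes the errors can thus be smaller or larger than the printed arrays imply. With only the arrays compared in the fit, 4193 genes were called, against 4285. RNA from whole cultures was measured, so fewer cells of a type and less RNA per cell cannot be told apart.

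The labels fitted the defining markers. At day 0 the 3 arrays measured between 12.50 and 13.06 for Pou5f1, Nanog and Sox2, and at day 11 none of the 3 genes exceeded 7.70. The 27 measured feeder-type fibroblast genes averaged 8.12 to 8.85 per array at day 11 and 10.69 to 11.37 at day 0. Their part in the results on fibroblast genes was not tested. Replicate 1 of day 11 stood apart: the SD of its log2 difference to replicates 2 and 3 over all genes was 0.668 and 0.702, against 0.514 between replicates 2 and 3, and 0.200 to 0.252 between the day 0 arrays. The signal of 3′ over 5′ control probe sets, which rises as RNA degrades, averaged 1.55 ± 0.23 log2 units at day 11 and 1.09 ± 0.07 at day 0 (SD, n = 3 each). With this index as a covariate 1737 genes were called higher and 2834 lower, and the named genes whose calls it ended are given below.

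Of 18193 genes, 4285 were called (23.6%): 1373 rose (7.55%) and 2912 fell (16%). Without replicate 1 of day 11, 1615 rose and 2480 fell. In 49.9% of all genes the 3 day 11 arrays lay entirely above or below the 3 day 0 arrays. The median change of all genes was 0.01, but it differed with signal level: 0.12 for the 5902 genes whose mean level was under 6, and -0.67 for the 3419 genes with a mean level of 10 and over. A cyclic loess between arrays brought every level class to a median between 0.01 and 0.04 and gave 1793 rises and 1994 falls, so that 47.3% of the calls were rises, against 32.0% with the deposited values. Quantile normalization gave 46.1%. From day 5 to day 11, 36.4% of 3077 calls were rises, against 55.1% under cyclic loess and 46.6% under quantile normalization. Where another scaling ended the call of a named gene, its value under that scaling is given below.

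**Figure D1:**
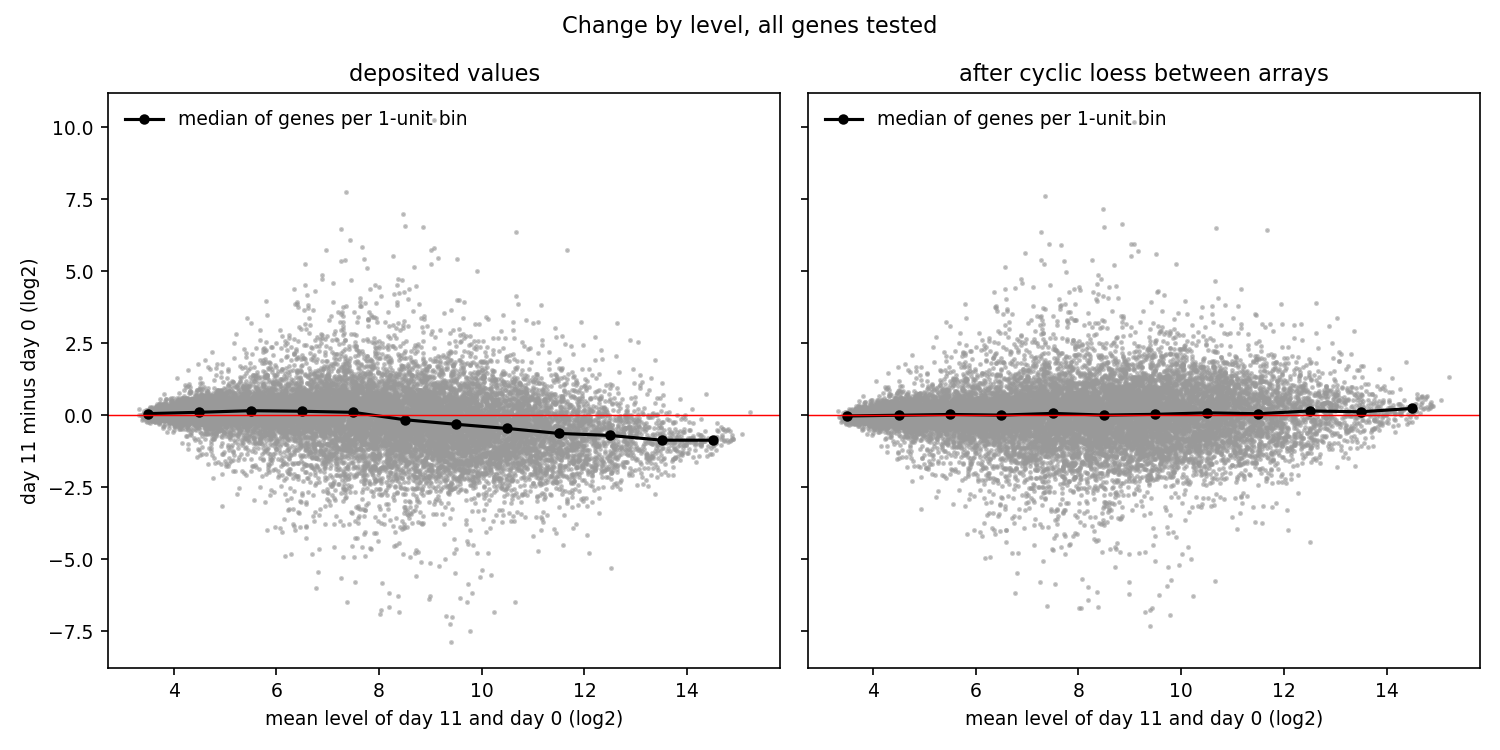
Change from day 0 to day 11 (vertical axis, log2) against the mean level of each gene (horizontal axis, log2 signal), each point a gene, with the deposited values on the left and after cyclic loess on the right. The black line joins the medians of bins 1 unit wide: on the left it slopes below 0 for bright genes (median -0.67 at levels of 10 and over), and on the right it stays near 0.

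The promoter sequences of 8 genes described below are shown first. They belong to the embryonic globins, which hold the largest rise of all named genes, the pluripotency factors, which hold the deepest fall, and germ line genes that fell. They do not represent their groups: every pluripotency and germ line window printed holds the motif of its group, which other windows of the group lack. Each window is the 250 bases before the start of the gene, read 5′ to 3′ on the strand of the gene, from RefSeq on build GRCm38.p6. Capitals mark the motif of the group: CCACCC (a version of the CACCC box), GATAA (the core of sites bound by Gata factors) and TATAAA (the TATA box) in the globin genes, TTTGCAT (a version of the octamer that Pou5f1 binds) in the pluripotency genes, and CACGTG (the E-box core) in the germ line genes. The windows are chr7:103853208-103853457 (minus strand, Hbb-y), chr11:32276350-32276599 (plus, Hba-x), chr6:122707239-122707488 (plus, Nanog, the first of 2 listed starts), chr8:43307010-43307259 (minus, Zfp42), chr3:34649745-34649994 (plus, Sox2), chr1:166238745-166238994 (minus, Mael), chr10:88459337-88459586 (plus, Sycp3) and chr13:112652311-112652560 (minus, Ddx4).
Hbb-y: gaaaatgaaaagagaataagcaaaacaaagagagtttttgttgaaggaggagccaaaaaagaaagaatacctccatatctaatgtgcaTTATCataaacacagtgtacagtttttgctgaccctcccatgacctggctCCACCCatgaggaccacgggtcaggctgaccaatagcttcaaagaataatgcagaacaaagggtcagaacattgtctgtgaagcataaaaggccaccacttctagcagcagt
Hba-x: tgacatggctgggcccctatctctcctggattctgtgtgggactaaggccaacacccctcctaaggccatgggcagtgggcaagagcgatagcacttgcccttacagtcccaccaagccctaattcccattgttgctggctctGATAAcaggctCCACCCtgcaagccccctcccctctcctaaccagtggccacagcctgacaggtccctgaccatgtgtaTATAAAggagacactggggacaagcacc
Nanog: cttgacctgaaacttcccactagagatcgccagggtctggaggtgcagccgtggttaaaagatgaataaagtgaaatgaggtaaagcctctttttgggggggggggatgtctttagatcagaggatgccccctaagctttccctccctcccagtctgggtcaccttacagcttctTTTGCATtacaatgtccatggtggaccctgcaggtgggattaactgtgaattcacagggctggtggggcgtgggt
Zfp42: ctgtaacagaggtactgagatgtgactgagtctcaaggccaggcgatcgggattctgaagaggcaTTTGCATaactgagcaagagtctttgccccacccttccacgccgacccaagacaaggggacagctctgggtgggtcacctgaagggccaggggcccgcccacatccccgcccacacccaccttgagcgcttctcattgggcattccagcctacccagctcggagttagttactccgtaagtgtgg
Sox2: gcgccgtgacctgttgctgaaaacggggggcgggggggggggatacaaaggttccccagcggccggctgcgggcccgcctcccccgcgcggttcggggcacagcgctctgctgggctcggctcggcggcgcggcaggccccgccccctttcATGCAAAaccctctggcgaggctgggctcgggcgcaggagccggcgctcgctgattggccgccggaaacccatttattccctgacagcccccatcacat
Mael: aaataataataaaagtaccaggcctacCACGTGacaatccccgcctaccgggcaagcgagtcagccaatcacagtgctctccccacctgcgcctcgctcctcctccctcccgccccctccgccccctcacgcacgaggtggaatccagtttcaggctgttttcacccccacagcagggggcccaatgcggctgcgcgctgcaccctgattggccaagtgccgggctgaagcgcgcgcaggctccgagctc
Sycp3: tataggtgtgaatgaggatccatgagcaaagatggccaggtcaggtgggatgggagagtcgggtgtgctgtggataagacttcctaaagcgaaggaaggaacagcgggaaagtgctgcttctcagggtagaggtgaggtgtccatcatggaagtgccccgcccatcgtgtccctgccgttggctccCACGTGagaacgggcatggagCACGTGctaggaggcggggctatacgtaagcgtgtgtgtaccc
Ddx4: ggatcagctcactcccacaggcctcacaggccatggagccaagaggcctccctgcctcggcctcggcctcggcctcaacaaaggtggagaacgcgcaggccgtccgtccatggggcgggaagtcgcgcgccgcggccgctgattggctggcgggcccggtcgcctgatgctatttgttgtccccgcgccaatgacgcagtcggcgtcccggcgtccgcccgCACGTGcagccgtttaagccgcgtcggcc

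In Hbb-y, CCACCC began 112 bases before the start and GATAA lay on the other strand at 162 bases. Hba-x held CCACCC at 96, GATAA at 107 and TATAAA at 28 bases before the start. The octamer-type TTTGCAT lay at 75 bases in Nanog, at 185 in Zfp42 and, on the other strand, at 99 in Sox2. CACGTG lay at 223 bases in Mael, at 64 and again at 43 in Sycp3, and at 29 in Ddx4. RefSeq windows were matched for 14368 of the 18193 genes. CACGTG was present on either strand in 10 of the 17 germ line windows (58.8%) and in 7.57% of all windows. Within the germ line list it was in 5 of the 8 windows of genes that fell. TTTGCAT, on either strand, was in 3 of 17 pluripotency windows (17.6%) and in 3.43% of all. Those 3 are the windows printed here, and that of Pou5f1 lacked it. CCACCC, on either strand, was in 9 of 14 erythroid windows (64.3%) and in 32.8% of all. GATAA, on either strand, was in 11 of 14 erythroid windows (78.6%) and in 17.4% of all. The longer AGATAA, which contains GATAA, was in 3 of 14 erythroid windows (21.4%) and in 7.46% of all. GATAA was added to the search after AGATAA was found in none of the printed windows, so its share is not an independent result. TATAAA, sought on the strand of the gene alone, was in 5.86% of all windows and in 2 of 14 erythroid windows. Of the other motifs sought on both strands, TTTGAA was in 7 of 19 mitosis windows (36.8%) and in 11.9% of all, and GGCGGGAA was in 2 of 21 DNA replication windows (9.52%), 0 of 19 mitosis windows and 2.81% of all. The windows also differed in base composition: the median GC content was 52.6% in erythroid, 59.2% in germ line, 60.8% in pluripotency and 57.6% in all windows. A match is a run of letters and does not show that a factor bound there. Motifs of the other groups occur in the printed windows too and are left in lower case: TTTGAA in Hbb-y, CCACCC in Zfp42, GATAA in Sycp3 and GGCGGGAA in Ddx4.

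Leaving pluripotency was the most uniform change. Of 27 measured naive and core pluripotency genes, 26 fell and 0 rose, with a median change of -4.37 against 0.01 over all genes. Nanog, which stabilizes the naive state, measured 4.69, 6.36 and 6.28 at day 11, against 13.06, 12.91 and 13.04 at day 0. It fell by 7.23 ± 0.48 on the log2 scale (adjusted p = 1.3e-10), and by 6.69 without replicate 1 of day 11, the array in which it was lowest. Sox2 measured 6.31, 6.93 and 6.23 at day 11, against 12.91, 13.04 and 12.92 at day 0, and fell by 6.47 ± 0.44 (adjusted p = 1.6e-10). Pou5f1 measured 7.23, 7.70 and 7.03 at day 11, against 12.73, 12.86 and 12.50 at day 0, and fell by 5.38 ± 0.52 (adjusted p = 1.6e-08). The groups lay at least 4 log2 units apart for each of these genes. The deepest falls of all named genes were those of Dppa2 (-7.86 ± 0.39), a chromatin factor of early embryos and germ cells, and Zfp42 (-7.50 ± 0.47), known as Rex1 and a classic label of naive mouse cells. Dppa2 measured 5.44, 5.79 and 5.16 at day 11, against 13.34, 13.49 and 13.14 at day 0.

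The only measured member of this list that was not called was Esrrb, an orphan nuclear receptor of the naive circuit. It measured 8.03, 7.65 and 7.47 at day 11, against 8.03, 8.86 and 8.25 at day 0 (-0.66 ± 0.22, adjusted p = 0.016), and the groups met at 8.03. At day 5, 22 of the 27 genes were already called lower than at day 0 (7.4% of all genes were) and 1 was called higher. Between day 5 and day 11, 14 were called lower (10.8% of all genes) and 1 higher. The mean level of the list was 11.51 ± 0.17 at day 0, 8.67 ± 0.39 at day 5 and 7.09 ± 0.08 at day 11 (SD, n = 3 each). The gene called higher at day 5 was Tbx3, a T-box factor: its mean was 7.41 at day 0, 10.35 at day 5 and 6.10 at day 11. Its net fall of -1.30 (adjusted p = 0.028) was called in only 2 of 6 fits that left out 1 array each.

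The primed epiblast genes, which mark the state after the naive one, were largely down at day 11 too: 9 of 13 fell and 1 rose, with a median of -3.42. Nodal, the ligand that patterns the epiblast, measured 7.40, 7.92 and 7.23 at day 11, against 12.41, 12.39 and 12.06 at day 0 (-4.77 ± 0.45, adjusted p = 1.2e-08). Zic5, a zinc finger factor, fell by 4.78, Otx2, the homeobox factor of anterior epiblast, by 4.63, and Dnmt3b by 4.51. The member that rose was Sfrp2, a secreted Wnt antagonist that is also made by mesenchyme (8.40, 8.79 and 9.65 at day 11, against 6.73, 7.28 and 6.87 at day 0).

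Reprogramming factors and Myc family genes gave 9 falls and 1 rise among 16, with 0 rises without replicate 3 of day 11. Besides Pou5f1 and Sox2, the largest falls were those of Lin28a (-4.37), an RNA-binding inhibitor of let-7 processing, Sall4 (-3.96) and Mycn (-3.77 ± 0.29). Lin28a and Sall4 were not yet called at day 5, when their means were 11.99 and 13.50, and at day 11 they measured 7.25, 7.52 and 7.85 for Lin28a and 9.75, 9.10 and 9.43 for Sall4. Klf4 measured 9.41, 9.45 and 10.49 at day 11, against 11.19, 11.32 and 11.16 at day 0 (-1.44 ± 0.31, adjusted p = 0.00053), and lost its call with cyclic loess (-0.99) and quantile normalization (-0.98) and with the 3′ over 5′ index as a covariate (-0.90). Myc measured 8.05, 8.08 and 8.46 at day 11, against 9.51, 9.37 and 9.25 at day 0 (-1.18 ± 0.19), and lost its call with the same scalings (-0.86 and -0.99) and with the index (-0.79). Its mean at day 5 was 11.06, above every day 0 and day 11 array. A probe set cannot tell a cell's own Pou5f1, Sox2, Klf4 or Myc transcript from a vector-borne copy that shares its probes, and whether such copies were present was not tested.

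**Figure D2:**
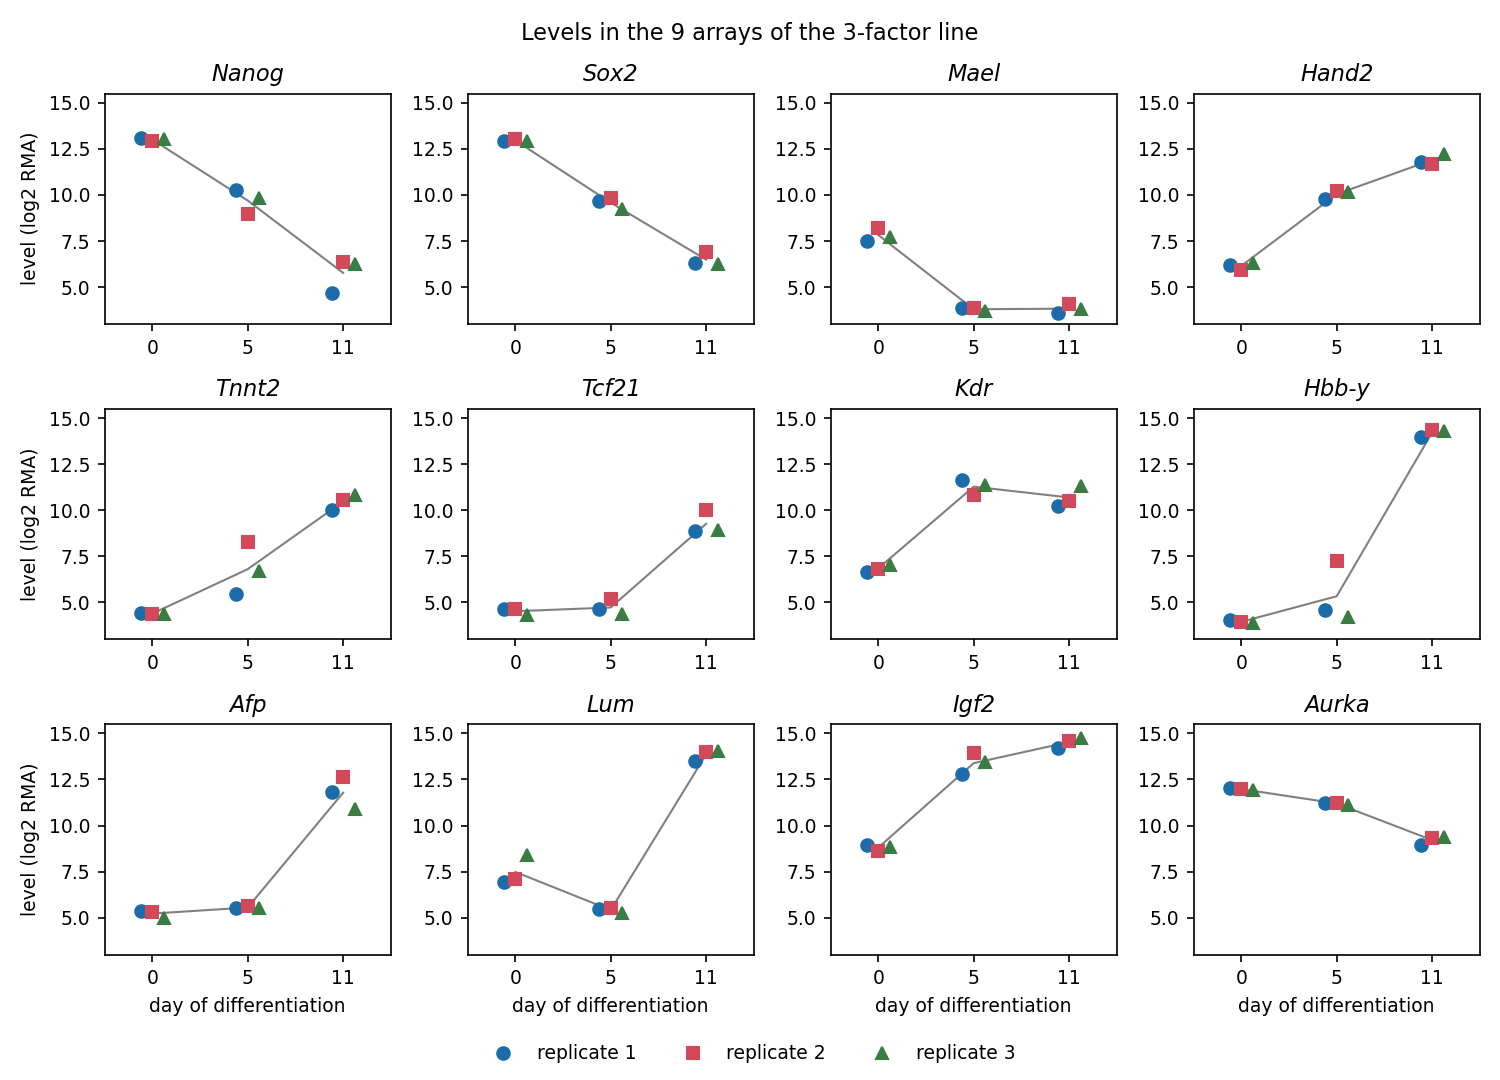
Log2 signal (vertical axis) of 12 genes at days 0, 5 and 11 (horizontal axis) in 3F cells, each point 1 array (marked by replicate) and each line the mean. Nanog, Sox2 and Mael drop, Hand2, Tnnt2, Tcf21, Kdr, Hbb-y, Afp and Igf2 stand higher at day 11 than at day 0, Kdr is highest at day 5, Lum dips at day 5 before its rise, and most of the fall of Aurka lies after day 5.

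Germ line genes that fell did so early. Of 23 measured, 12 fell and 0 rose (median -1.68; 2 rose without replicate 3 of day 11), and 12 were called lower at day 5 already, with 0 called higher. Morc1, which represses transposons in male germ cells, measured 4.83, 5.78 and 4.30 at day 11, against 12.02, 11.85 and 11.55 at day 0 (-6.83 ± 0.58, adjusted p = 2.4e-09). Sycp3, a protein of the meiotic chromosome axis, measured 3.56, 3.93 and 3.71 at day 11, against 8.26, 8.96 and 8.62 at day 0 (-4.88 ± 0.43). Ddx4, the germ cell helicase Vasa, measured 3.55, 4.24 and 3.82 at day 11, against 8.35, 8.93 and 8.78 at day 0 (-4.82 ± 0.28). Tdrd12 and Tex19.1, of transposon control, fell by 4.88 and 4.60. Mael, named for the promoter shown above, fell by 3.99 (3.60, 4.10 and 3.80 at day 11, against 7.52, 8.22 and 7.73 at day 0). All day 11 arrays of these genes lay below all day 0 arrays. The genes of the list that did not pass included Dazl (-0.54), Sycp1 (-0.52), Stra8 (0.01) and Tdrd1 (-0.16). The mean level of the list was 7.46 ± 0.11 at day 0, 5.55 ± 0.17 at day 5 and 5.50 ± 0.21 at day 11 (SD, n = 3 each).

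Regulators of DNA methylation and chromatin fell in 16 of 27 cases and rose in 1 (median -1.74). Dnmt3l, the cofactor of de novo methylation, measured 5.96, 5.66 and 5.75 at day 11, against 12.37, 12.18 and 11.96 at day 0 (-6.38 ± 0.43, adjusted p = 1.4e-10). Dnmt3b, a de novo methyltransferase, measured 8.89, 9.19 and 9.87 at day 11, against 13.69, 13.94 and 13.86 at day 0 (-4.51 ± 0.33, adjusted p = 3.8e-10). Dnmt3b was at 13.03 on average at day 5 and was not called then, whereas Dnmt3l stood at 7.12. Tet1, which oxidizes methylated cytosine, fell by 4.45, the helicase Hells by 3.51 and the histone demethylase Kdm4c by 3.00. The maintenance methyltransferase Dnmt1 did not pass (9.19, 10.02 and 10.54 at day 11, against 10.22, 10.33 and 9.98 at day 0, adjusted p = 0.44), nor did Dnmt3a (-0.74 ± 0.27, adjusted p = 0.03). The member that rose, named after its value was seen, was Smarca2 (2.36 ± 0.51), an ATPase of the SWI/SNF remodelling complex.

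Genes of cell division fell late and together. Of 26 DNA replication genes, 20 fell and 0 rose (median -1.69), and of 23 mitosis genes, 21 fell and 0 rose (median -1.89). At day 5, 0 members of either list were called in either direction against day 0, while 12.4% of all genes were called. Between day 5 and day 11, 21 replication and 21 mitosis genes fell, where 10.8% of all genes did. Aurka, a kinase of the spindle poles, measured 8.94, 9.31 and 9.38 at day 11, against 12.02, 11.995 and 11.92 at day 0 (-2.77 ± 0.22, adjusted p = 9.9e-10). Ttk, the spindle checkpoint kinase, measured 7.59, 8.04 and 8.35 at day 11, against 10.76, 10.64 and 10.80 at day 0 (-2.74 ± 0.19). Cdc6, which loads the replicative helicase, measured 8.08, 8.89 and 9.0 at day 11, against 11.48, 11.45 and 11.21 at day 0 (-2.73 ± 0.23). In each of these genes the day 11 arrays lay more than 2 log2 units below the lowest day 0 array. Mcm3 and Mcm5, subunits of that helicase, fell by 2.59 and 2.46. Kif11, Cdc20 and Ccna2 fell by 2.57, 2.38 and 2.36. Mki67 (-0.91 ± 0.26, adjusted p = 0.0065) and Cdk1 (-0.78) did not reach the 2-fold limit. Under cyclic loess, 15 replication and 14 mitosis genes were still called lower, and under quantile normalization 15 of each.

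Histones and ribosome biogenesis genes behaved alike in timing: 19 of 21 fell and 0 rose (median -2.24), with 3 called lower at day 5, and 18 called lower and 1 higher between day 5 and day 11. Nop58, a core protein of box C/D small nucleolar particles, measured 7.87, 9.11 and 8.69 at day 11, against 12.18, 12.28 and 12.28 at day 0 (-3.69 ± 0.28, adjusted p = 6.9e-10). Ddx21, a nucleolar helicase, fell by 3.68 and Nolc1, a nucleolar phosphoprotein, by 3.53. Dkc1, the pseudouridine synthase, fell by 2.98, and Polr1b, a subunit of RNA polymerase I, by 2.87. These are bright genes, with a list mean of 10.40 ± 0.24 at day 11 and 12.64 ± 0.01 at day 0 (SD, n = 3 each), and 16 were still called lower under cyclic loess and 17 under quantile normalization.

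Among 22 genes of cell cycle exit and the p53 pathway, 7 fell and 2 rose, with 4 rises under cyclic loess and under quantile normalization. Ccnd1, the D-type cyclin, measured 7.48, 7.31 and 7.38 at day 11, against 11.17, 10.95 and 11.33 at day 0 (-3.76 ± 0.30, adjusted p = 1.3e-09). Cdkn1c, the imprinted cyclin-dependent kinase inhibitor p57, measured 11.79, 12.19 and 12.72 at day 11, against 9.10, 9.02 and 8.83 at day 0 (3.25 ± 0.38, adjusted p = 2.9e-07). Cdkn1a, the p21 inhibitor, did not pass (0.35). Gadd45a, Perp and Sesn2, targets of p53, fell by 2.09, 1.91 and 1.87.

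The primitive streak and early mesoderm genes showed a passing phase. At day 5, 13 of 18 were called higher than at day 0 (5.04% of all genes) and 0 lower, and between day 5 and day 11, 8 fell and 0 rose, so that only 4 rises and 1 fall were left in the net change. Mixl1, a streak homeobox gene, had means of 6.98 at day 0, 11.49 at day 5 and 5.94 at day 11. Its net change of -1.04 did not pass (adjusted p = 0.34), while its change was 4.51 from day 0 to day 5 and -5.55 from day 5 to day 11. Mesp1, which marks the earliest heart mesoderm, had means of 7.45 at day 0, 11.16 at day 5 and 8.40 at day 11, and its net change of 0.95 did not pass (adjusted p = 0.29). Replicate 2 was the lowest of the 3 day 5 arrays for both genes (10.39 for Mixl1, 9.96 for Mesp1). The receptors Aplnr (5.34 ± 0.999), Kdr (3.85 ± 0.47) and Pdgfra (2.67 ± 0.71) stayed high, and Foxa2 rose by 1.5. Eomes fell by 3.37 (6.92, 6.96 and 7.46 at day 11, against 10.49, 10.21 and 10.73 at day 0).

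Of 29 cardiac transcription factors, 11 rose and 2 fell (median 0.78), with 1 fall without replicate 1 or without replicate 2 of day 0. Hand2, a bHLH factor of the heart and limb, measured 11.76, 11.69 and 12.24 at day 11, against 6.19, 5.94 and 6.31 at day 0 (5.75 ± 0.45, adjusted p = 8.7e-10). Gata6, a zinc finger factor of heart and endoderm, measured 10.25, 10.54 and 11.43 at day 11, against 6.01, 6.11 and 5.92 at day 0 (4.73 ± 0.37). Tbx20, a T-box factor of the developing heart, measured 10.37, 10.19 and 11.27 at day 11, against 5.90, 5.80 and 6.61 at day 0 (4.51 ± 0.66). The groups were separated by more than 3 log2 units in each. Meis2 and Meis1, homeobox cofactors, rose by 3.66 and 2.67, and Mef2c, an activator of muscle genes, by 2.66 ± 0.32. Gata4 rose by 2.44 and Hand1 by 1.73, with day 11 means of 7.75 for Gata4 and 7.98 for Hand1, against day 5 means of 9.16 and 9.88. Mef2c and Meis1 were called at day 11 and not at day 5.

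Several defining factors of cardiomyocyte precursors did not pass. Nkx2-5, the homeobox factor of cardiac progenitors, measured 8.34, 7.22 and 6.63 at day 11, against 6.87, 6.80 and 6.66 at day 0 (0.62 ± 0.25, adjusted p = 0.042). The groups overlapped and replicate 1 alone exceeded 8. Without replicate 3 of day 11 its change of 1.01 was called. Tbx5 changed by 0.75 ± 0.15 (adjusted p = 0.00032), short of 2-fold, with 7.38, 6.73 and 6.92 at day 11, against 6.36, 6.21 and 6.20 at day 0. Isl1, of the second heart field, changed by 0.71 (adjusted p = 0.12) and had been called higher at day 5 (1.77). With the mean of its probe sets Isl1 was called at day 11 too (1.36, adjusted p = 0.0317). Tbx18, an epicardial and sinus node factor, fell by 1.68.

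Sarcomere genes rose in part. Of 16 thin filament genes, 7 rose and 1 fell (median 0.48). Tnnt2, cardiac troponin T, measured 9.996, 10.58 and 10.84 at day 11, against 4.44, 4.36 and 4.38 at day 0 (6.08 ± 0.65, adjusted p = 8.2e-08). Tnni1, the slow skeletal troponin I that embryonic hearts use, measured 11.80, 12.70 and 11.45 at day 11, against 6.28, 6.04 and 6.18 at day 0 (5.82 ± 0.45, adjusted p = 8.3e-10). Tnni3, its adult cardiac counterpart, did not pass (5.72, 5.52 and 4.79 at day 11, against 5.11, 5.03 and 5.11 at day 0, adjusted p = 0.54). Tnnc1, the troponin C of slow and cardiac muscle, measured 8.47, 10.29 and 8.46 at day 11, against 6.79, 6.07 and 6.60 at day 0 (2.59 ± 0.52). Actc1, cardiac actin, measured 10.83, 11.08 and 9.96 at day 11, against 8.68, 7.64 and 8.0 at day 0 (2.51 ± 0.76, adjusted p = 0.0085). It was not called with the 3′ over 5′ index as a covariate (2.02). Acta1, skeletal actin, fell by 1.21 ± 0.28, and was not called without replicate 1 of day 0 (-0.98).

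Of 26 genes of the thick filament, Z-disc and M-band, 8 rose and 1 fell (median 0.49). Replicate 2 of day 11 was the highest array for the myosin light chains. Without it 4 of these genes rose. Myh7, the slow heavy chain, measured 7.98, 8.53 and 7.06 at day 11, against 5.53, 5.54 and 5.50 at day 0 (2.34 ± 0.40, adjusted p = 3.7e-05). Myl7, the atrial regulatory light chain, measured 8.66, 10.06 and 7.50 at day 11, against 6.65, 6.67 and 6.54 at day 0 (2.12 ± 0.72, adjusted p = 0.018), and changed by 1.46 without replicate 2, not called. Myl2, the ventricular light chain, measured 7.58, 8.08 and 5.03 at day 11, against 4.89, 4.53 and 4.39 at day 0 (2.29 ± 0.68, adjusted p = 0.0075), and changed by 1.70 without replicate 2, not called. Replicate 3 was the lowest day 11 array for these 3 genes and lay close to the day 0 arrays for Myl2. Myl4 (1.45) lost its call without replicate 2 of day 11 (0.86) and without replicate 3 of day 0 (1.34). With the 3′ over 5′ index as a covariate, Myl2 (1.35) and Myl7 (0.86) were not called either, nor was Myl4 (0.78). With the mean of its probe sets, Myl4 lost its call (0.95) and Myl3 gained one (1.40). Myom1, of the M-band, rose by 2.31 ± 0.35. Myh6, the fast heavy chain of mouse atria, was not called (6.49, 7.08 and 4.76 at day 11, against 6.96, 7.43 and 6.92 at day 0, adjusted p = 0.27), and Myl3 and Ttn were not either (0.59 and -0.26).

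Calcium handling, channel and peptide genes of the heart were mostly not called: 4 of 24 rose and 3 fell (median 0.24), and 1 fell under cyclic loess and under quantile normalization. Corin, the protease that matures natriuretic peptide, measured 6.78, 7.54 and 9.02 at day 11, against 3.78, 3.89 and 3.76 at day 0 (3.97 ± 0.42, adjusted p = 7.3e-08). Ryr2, the calcium release channel, measured 5.43, 6.35 and 6.93 at day 11, against 4.52, 4.67 and 4.77 at day 0 (1.58 ± 0.29). Nppb, brain natriuretic peptide, rose by 1.30 and was not called without replicate 2 of day 11 (0.77) or with the index as a covariate (0.76). Atp2a2, the calcium pump, fell by 1.19, and was not called with cyclic loess (-0.29), with quantile normalization (-0.51) without replicate 2 of day 11 (-0.95), with the index as a covariate (-0.85) or with the mean of its probe sets (-0.29). Fabp3, a fatty acid carrier of heart muscle, fell by 1.71. With the mean of their probe sets neither Ryr2 (0.74) nor Fabp3 (-0.57) was called. Nppa, atrial natriuretic peptide, changed by 0.97 (adjusted p = 2.5e-06), just short of 2-fold, with 6.61, 6.33 and 5.91 at day 11, against 5.42, 5.29 and 5.24 at day 0. Of 18 skeletal muscle genes, 1 rose and 2 fell, near the shares of all genes, of which 7.55% rose and 16% fell. Myod1 (0.06) and Myog (-0.06) did not pass. The list mean was 5.74 ± 0.07 at day 0 and 5.57 ± 0.13 at day 11 (SD, n = 3 each), under the 6.50 limit for dim genes.

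**Figure D3:**
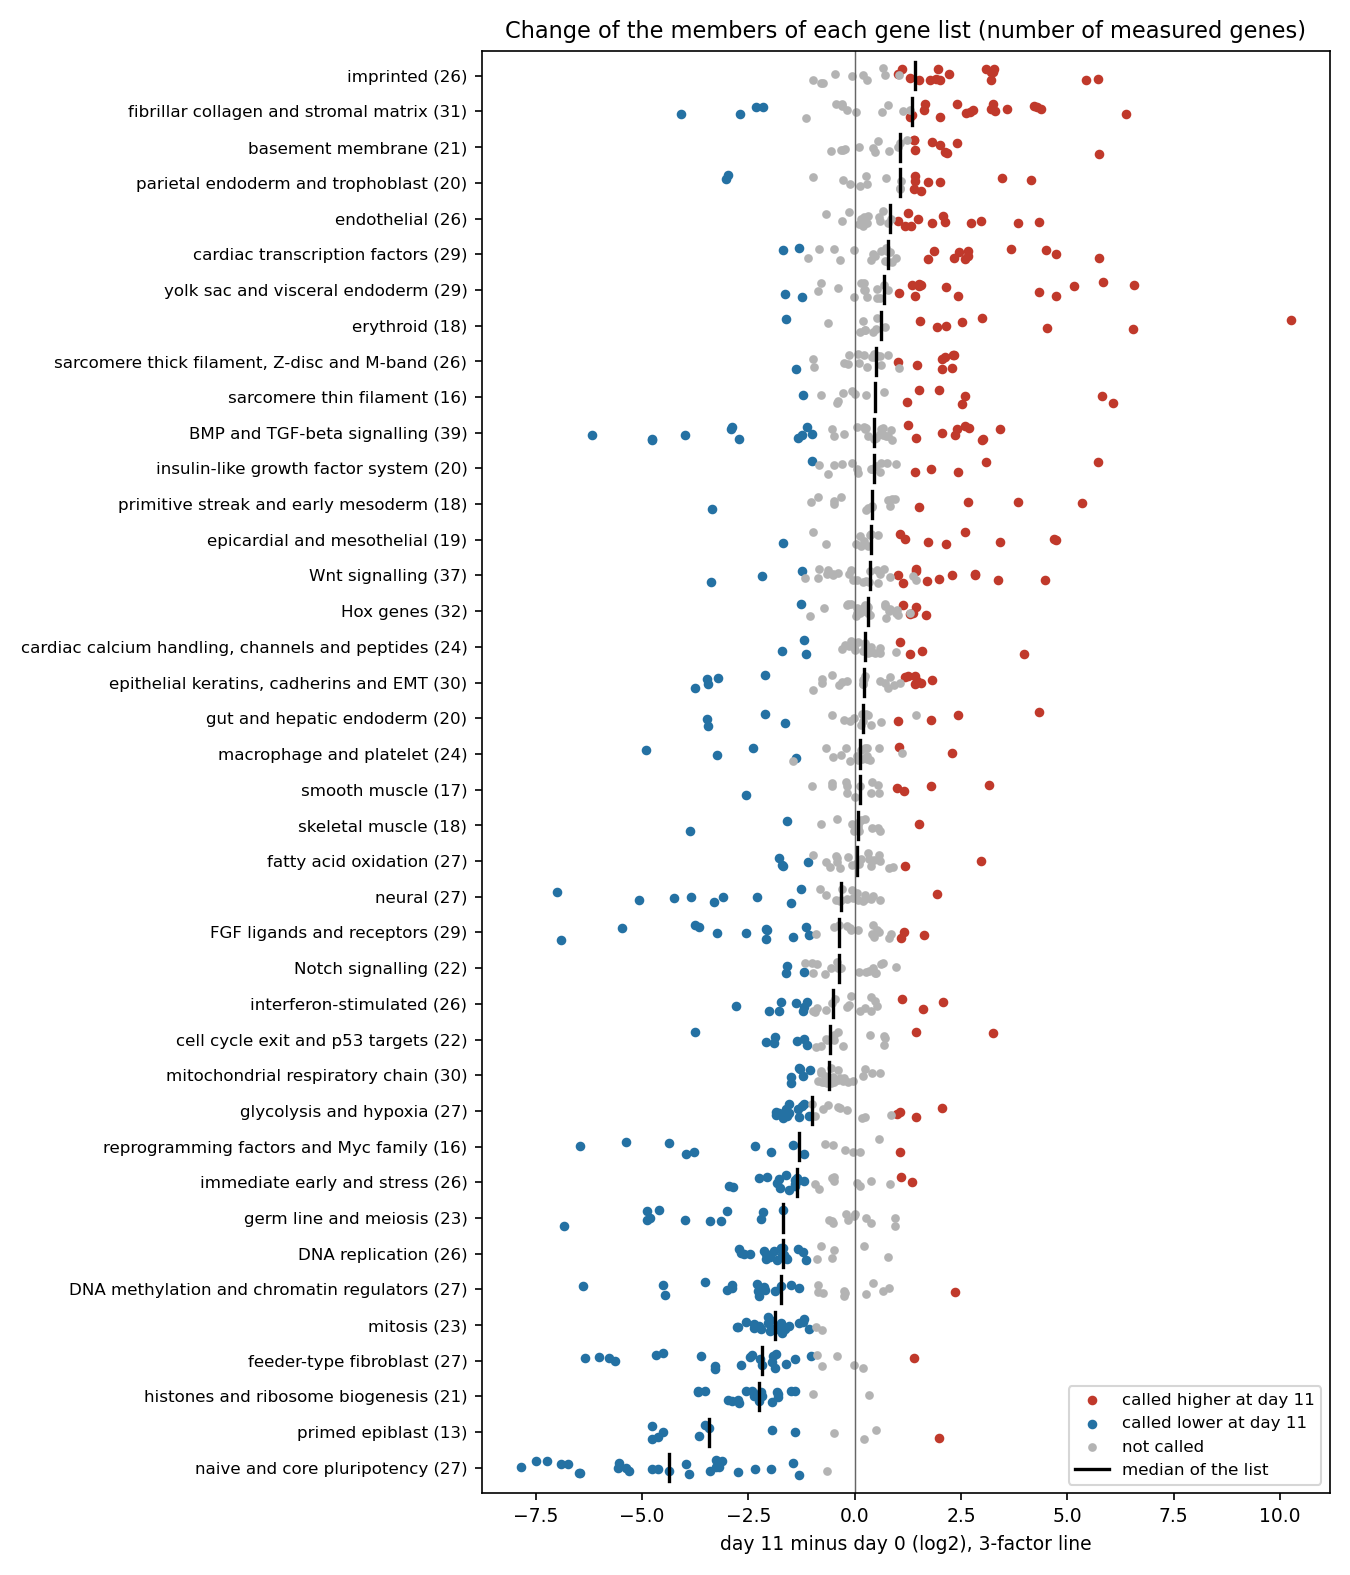
Change from day 0 to day 11 (horizontal axis, log2) of every measured member of the 40 gene lists (rows), each point a gene, red where called higher, blue where called lower and grey where not called, with a black bar at the list's median. The pluripotency, feeder-type, mitosis and ribosome biogenesis lists have medians left of 0, and the imprinted, stromal and basement membrane lists have medians of 1.41, 1.34 and 1.07.

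Epicardial and mesothelial genes rose in 8 of 19 cases, with 1 fall (median 0.37). Tcf21, a bHLH factor of epicardium and its fibroblasts, measured 8.88, 10.0006 and 8.92 at day 11, against 4.64, 4.63 and 4.29 at day 0 (4.74 ± 0.52, adjusted p = 1e-07). Upk3b, a mesothelial membrane protein, measured 9.96, 10.38 and 9.03 at day 11, against 5.37, 5.20 and 4.75 at day 0 (4.68 ± 0.36, adjusted p = 8.7e-10). Wt1, the zinc finger factor of mesothelium, measured 8.17, 8.72 and 9.03 at day 11, against 6.21, 6.14 and 5.77 at day 0 (2.60 ± 0.24). Bnc1 and Nkain4 rose by 3.41 and 2.15. None of these 5 genes was called at day 5, when Tcf21 stood at 4.73 and Upk3b at 5.07. Smooth muscle genes showed 4 rises and 1 fall among 17 (median 0.11), with 2 rises without replicate 3 of day 11. Acta2, smooth muscle actin, was bright at both ends (14.42, 14.47 and 14.81 at day 11, against 15.18, 14.96 and 15.19 at day 0, adjusted p = 0.48), and dropped by 3.89 at day 5 and climbed by 3.35 from day 5 to day 11. Tagln, transgelin, had the same dip, with a net change of 0.01. Cnn1, calponin, fell by 2.56, and Rgs5, a pericyte marker, rose by 3.16.

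Endothelial genes rose in 12 of 26 cases and fell in 0 (median 0.82). Kdr, the main VEGF receptor, measured 10.25, 10.51 and 11.32 at day 11, against 6.67, 6.83 and 7.04 at day 0 (3.85 ± 0.47, adjusted p = 5.4e-07). Cd34, a surface sialomucin of endothelium and progenitors, measured 7.86, 8.74 and 9.66 at day 11, against 5.55, 6.07 and 5.71 at day 0 (2.98 ± 0.41). Its day 5 mean was 4.25, below every day 0 array. Icam2 and Cldn5, of endothelial junctions, rose by 2.74 and 2.12. Sox17, a factor of endothelium and endoderm alike, rose by 4.32 ± 0.43, with a mean of 8.92 at day 11, against 10.78 at day 5. Pecam1 (0.78, adjusted p = 0.043) stayed short of 2-fold, with 6.59 in replicate 1 and 5.59 and 5.70 in the other day 11 arrays, and Flt1 (-0.29), Eng (0.09) and Etv2 (-0.67) did not pass. Tek (1.49, adjusted p = 0.038) kept its call in 1 of 6 fits that left out 1 array each.

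The largest rise of all named genes was in primitive blood. Of 18 erythroid genes, 8 rose and 1 fell (median 0.62). Hbb-y, the embryonic beta-type globin whose promoter is shown above, measured 13.99, 14.35 and 14.29 at day 11, against 4.03, 3.95 and 3.86 at day 0. It rose by 10.26 ± 0.89 (adjusted p = 3.9e-09), and at day 5 its mean was 5.33. Hbb-bh1, a second embryonic globin of the same cluster, measured 12.67, 13.29 and 10.39 at day 11, against 5.66, 5.61 and 5.49 at day 0 (6.53 ± 1.22, adjusted p = 0.00011). Hba-x, the embryonic alpha-type globin, measured 10.62, 10.31 and 9.62 at day 11, against 5.69, 5.56 and 5.74 at day 0 (4.52 ± 0.57). Replicate 3 of day 11 was the lowest day 11 array for Hbb-bh1 and Hba-x. Slc4a1, the band 3 anion exchanger of red cells, rose by 2.99 ± 0.16 and Tal1, the bHLH factor of blood formation, by 2.52. The adult-type Hba-a1 did not pass (0.23), nor did the erythroid factors Gata1 (7.28, 7.57 and 7.32 at day 11, against 6.91, 7.05 and 6.63 at day 0, adjusted p = 0.14) and Klf1 (0.18). The genes for embryonic globins share sequence, and how far their probe sets cross-react was not tested.

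Macrophage and platelet genes gave 2 rises and 4 falls among 24 (median 0.11), with 1 rise without replicate 1 of day 11. These counts were near the shares of all genes, of which 7.55% rose and 16% fell. Defining genes of macrophages were near their day 0 levels: Ptprc (-0.68, adjusted p = 0.23), Csf1r (0.57), C1qa (-0.12) and Adgre1 (0.14) did not pass. The falls were those of Ppbp (-4.90), Ctss (-3.24), Cd68 (-2.40) and Lyz2 (-1.38). Ctss measured 6.62, 7.09 and 5.46 at day 11, against 9.97, 8.77 and 10.15 at day 0. Lyz2 was not called with array weights (-1.15), when only the arrays compared were fitted (adjusted p = 0.0528), without replicate 3 of day 0 (-1.05) or without replicates 1 (-1.24) or 3 (-1.09) of day 11. Laptm5, a lysosomal protein of blood cells, rose by 2.28 with the probe set used here, but its other probe set changed by -3.18 and the mean of both by -0.43, so its direction is not settled. It was the only named gene with another probe set changed at least 2-fold the opposite way. The macrophage list averaged 6.26 to 7.15 per array at day 11 and 6.92 to 7.23 at day 0. It dipped in between, to a mean of 5.95 ± 0.05 at day 5 (SD, n = 3). At day 5, 6 members were called lower than at day 0 (7.4% of all genes) and 1 higher (5.04%). Between day 5 and day 11, 4 rose (6.16% of all genes) and 0 fell (10.8%), with a median of 0.67.

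Yolk sac and visceral endoderm genes rose in 13 of 29 cases and fell in 2 (median 0.69), with 1 fall without replicate 3 of day 11 and 0 under quantile normalization. Afp, alpha-fetoprotein, measured 11.80, 12.64 and 10.91 at day 11, against 5.36, 5.33 and 4.99 at day 0 (6.56 ± 0.38, adjusted p = 2.1e-11), with a day 5 mean of 5.56. Ttr, the thyroid hormone carrier transthyretin, measured 11.22, 11.54 and 8.97 at day 11, against 4.53, 4.66 and 5.04 at day 0 (5.83 ± 0.70). Rbp4, the retinol carrier, measured 11.65, 12.10 and 10.03 at day 11, against 6.29, 5.56 and 6.49 at day 0 (5.15 ± 0.46). In all 3 genes replicate 3 was the lowest day 11 array. Albumin (Alb, 0.14) and the fibrinogen chains Fga, Fgb and Fgg (0.21, 0.21 and -0.02) did not pass. Of 20 parietal endoderm and trophoblast genes, 8 rose and 2 fell (median 1.06). Plac1, a placental gene, rose by 4.14 and Plat, tissue plasminogen activator, by 3.47, Tfap2c, a trophoblast and germ cell factor, fell by 3.03, and Cdx2 (0.26) and Elf5 (-0.11) did not pass. Gut and hepatic genes gave 4 rises and 4 falls among 20. The rises included Sox17 and Foxa1 (2.42), and the falls Epcam (-3.47), Cdh1 (-3.45) and Cldn6 (-2.11), which undifferentiated cells express.

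Stromal matrix genes changed most after day 5. Of 31 fibrillar collagen and stromal matrix genes, 17 rose and 4 fell between day 0 and day 11 (median 1.34), whereas at day 5, 18 were called lower than at day 0 and 3 higher (median -2.07). Between day 5 and day 11, 21 rose (6.16% of all genes) and 0 fell (median 3.15). Lum, the proteoglycan lumican, measured 13.51, 14.01 and 14.05 at day 11, against 6.92, 7.11 and 8.43 at day 0 (6.37 ± 0.49, adjusted p = 8.5e-10, 82.9-fold), with a day 5 mean of 5.42. Col3a1, collagen III, measured 14.01, 14.13 and 14.45 at day 11, against 11.11, 11.42 and 12.20 at day 0 (2.62 ± 0.59), and stood at 5.58 on average at day 5. Col1a1, collagen I, measured 12.75, 12.62 and 13.48 at day 11, against 10.03, 9.80 and 10.72 at day 0 (2.77 ± 0.63). Replicate 3 of day 0 was the highest day 0 array of all 3 genes, and no day 11 array overlapped it. Spon1, Ogn and Fbn2 rose by 4.38, 4.27 and 4.21, and Bgn, biglycan, fell by 4.08 (8.86, 8.64 and 10.69 at day 11, against 13.43, 13.20 and 13.81 at day 0). Over the fits that left out 1 array each, the rises numbered 14 to 19.

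The feeder-type fibroblast genes gave the opposite net result: 21 of 27 fell and 1 rose (median -2.17). Tm4sf1 measured 5.65, 6.82 and 6.71 at day 11, against 12.76, 12.44 and 13.03 at day 0 (-6.35 ± 0.39, adjusted p = 4.1e-11). The matrix proteases Mmp13 (-6.01 ± 0.32) and Mmp3 (-5.79 ± 0.46), the serpin Serpinb2 (-5.64) and the surface glycoprotein Thy1 (-4.68 ± 0.21) were lost likewise. Mmp13 measured 3.82, 3.70 and 3.76 at day 11, against 9.34, 9.21 and 10.76 at day 0. At day 5, 22 of the 27 were called lower than at day 0 and 0 higher (median -4.16), and between day 5 and day 11, 11 rose and 2 fell. S100a4, a calcium-binding protein of fibroblasts, had means of 12.03 at day 0, 5.61 at day 5 and 8.75 at day 11. The list mean was 10.99 ± 0.35 at day 0, 7.25 ± 0.22 at day 5 and 8.50 ± 0.37 at day 11, and that of the stromal list 9.38 ± 0.31, 7.31 ± 0.29 and 10.71 ± 0.46 on the same days (SD, n = 3 each). Feeder-type genes are also expressed by the fibroblasts that form in embryoid bodies, and the share of either source was not tested. The riser was Twist2 (1.39), a bHLH factor of mesenchyme named after its value was seen, which was not called without replicate 1 or 2 of day 0 or replicate 3 of day 11.

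**Figure D4:**
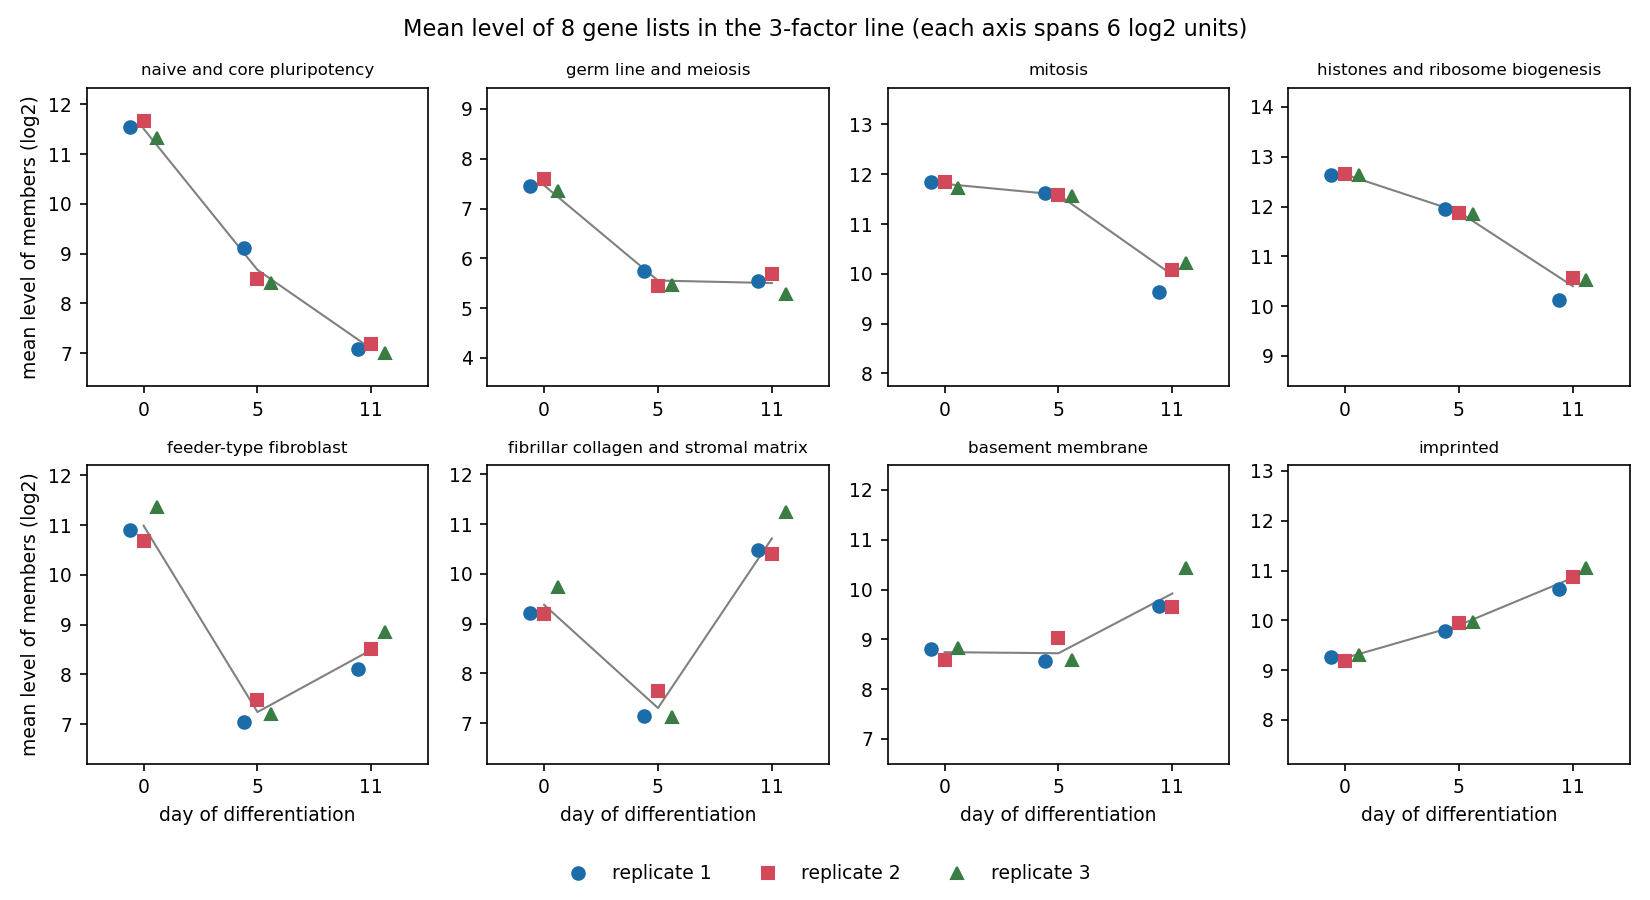
Mean log2 signal (vertical axis, each axis spanning 6 log2 units) of 8 gene lists in each 3F array at days 0, 5 and 11 (horizontal axis), each point 1 array. The pluripotency mean is 7.09 at day 11 and 11.51 at day 0, the mitosis mean is 9.98 at day 11 and still 11.59 at day 5, and the feeder-type and stromal means are both lowest at day 5.

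Basement membrane genes rose in 9 of 21 cases and fell in 0 (median 1.07). Frem1, an extracellular matrix protein of epithelial basement membranes, measured 8.99, 9.90 and 10.61 at day 11, against 4.03, 4.11 and 4.14 at day 0 (5.74 ± 0.35, adjusted p = 4.8e-11). Npnt, nephronectin, rose by 2.42, the collagen IV chains Col4a5 and Col4a6 by 2.17 and 2.13, and the laminin chain Lama1 by 2.0. Nid1, Hspg2 and Lamb1 did not pass (-0.23, -0.32 and -0.27).

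Imprinted genes, expressed from the copy of 1 parent, rose in 16 of 26 cases and fell in 0 (median 1.41). Igf2, the fetal insulin-like growth factor, measured 14.21, 14.61 and 14.77 at day 11, against 8.96, 8.61 and 8.85 at day 0 (5.72 ± 0.58, adjusted p = 3.2e-08), and was already at 13.39 on average at day 5. Dlk1, a membrane inhibitor of adipocyte formation, measured 12.06, 11.90 and 12.73 at day 11, against 6.74, 6.88 and 6.80 at day 0 (5.43 ± 0.56), but only 7.67 on average at day 5. Nnat and Plagl1 rose by 3.27 and 3.21, as did Cdkn1c, given above. Plagl1, a zinc finger factor, dipped at day 5 (8.84) below its day 0 mean (11.03). Genes of the list that did not pass were Peg3 (1.05), Snrpn (-0.06), Impact (-0.74) and 7 more. In the insulin-like growth factor system, 5 of 20 genes rose and 1 fell (median 0.45): besides Igf2, Igf2r (3.10), the receptor that clears Igf2, the binding proteins Igfbp4 (2.43) and Igfbp1 (1.79), and the protease Htra1 (1.42) rose, and Igf1 (0.38) and Igf1r (0.75) did not pass. Under quantile normalization 8 genes of this list rose. Whether imprinted expression stayed on 1 copy cannot be read from these arrays.

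Ligands and receptors of the signalling pathways were split. Of 37 Wnt genes, 11 rose and 3 fell (median 0.35). Wnt2, a ligand of heart and lung mesenchyme, measured 10.42, 11.11 and 11.36 at day 11, against 6.39, 6.14 and 6.91 at day 0 (4.48 ± 0.42, adjusted p = 1e-08). The antagonist Sfrp1, the receptor Fzd1 and the feedback inhibitor Nkd1 rose by 3.36, 2.83 and 2.83, and the receptor Fzd5 fell by 3.38. Axin2, a target of canonical Wnt signalling, did not pass (-0.51). Of 39 BMP and TGF-beta genes, 10 rose and 11 fell. The falls were led by Nodal pathway genes: Lefty2 (4.96, 4.94 and 5.42 at day 11, against 11.47, 11.25 and 11.11 at day 0, -6.17 ± 0.45), Gdf3 (-4.77) and Lefty1 (-4.00), with the activin subunit Inhba (-4.76). Bambi, a BMP pseudoreceptor, rose by 3.42. Of 29 FGF genes, 12 fell and 3 rose (median -0.36), with 1 rise without replicate 3 of day 11. Fgf4, the autocrine FGF of pluripotent cells, measured 4.07, 4.69 and 4.94 at day 11, against 11.51, 11.92 and 11.00 at day 0 (-6.90 ± 0.50), and Etv5, an FGF target, fell by 5.46. Fgfbp1, Fgf5 and Fgf15 fell by 3.77, 3.65 and 3.25. Of 22 Notch genes, 0 rose and 3 fell, where 7.55% of all genes rose and 16% fell. The falls were those of Dtx1 (-1.61), Jag1 (-1.59) and Hes1 (-1.19, not called with cyclic loess, -0.58, or quantile normalization, -0.72). Dtx1 was not called with the mean of its probe sets (-0.64). Without replicate 3 of day 11, 6 Notch genes fell.

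Hox genes were mostly not called: 5 of 32 rose and 1 fell (median 0.31). Hoxa5 measured 11.23, 9.80 and 9.45 at day 11, against 8.57, 8.25 and 8.63 at day 0 (1.68 ± 0.29, adjusted p = 4.6e-05), highest in replicate 1. Hoxa10 measured 5.89, 8.01 and 7.95 at day 11, against 5.78, 5.43 and 6.29 at day 0 (1.45 ± 0.39), where replicate 1 lay within the day 0 range. Hoxa11 rose by 1.36 and Hoxc10 by 1.30, which was not called without replicate 3 of day 11 (0.94). Hoxd13 fell by 1.27. With the mean of their probe sets, Hoxa10 (0.94), Hoxa5 (0.65) and Hoxd13 (-0.54) were not called, and Hoxa10 was not when only the arrays compared were fitted (adjusted p = 0.0815). With the 3′ over 5′ index as a covariate, 8 Hox genes were called higher.

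Neural genes fell in 9 of 27 cases and rose in 1 (median -0.32). Nefl, a neurofilament subunit, measured 5.37, 5.96 and 6.46 at day 11, against 12.82, 12.77 and 13.17 at day 0 (-6.99 ± 0.45, adjusted p = 8.8e-11). Stmn2, a microtubule regulator of neurons, measured 5.72, 6.26 and 6.85 at day 11, against 11.40, 11.34 and 11.32 at day 0 (-5.07 ± 0.29). Neurod1 and Map2 fell by 4.26 and 3.85. The midbrain-hindbrain factor Gbx2 fell by 3.30. These genes were thus higher in the day 0 cultures than at day 11. The progenitor gene Sox1 was low at day 0 (5.22, 5.40 and 5.38), and its change of 0.39 to day 11 did not pass. Which cells of the day 0 cultures expressed the genes that fell was not tested. The gene that rose was Ncam1 (1.94), an adhesion molecule also made by mesoderm, named after its value was seen.

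Of 30 keratin, cadherin and epithelial-mesenchymal transition genes, 7 rose and 5 fell (median 0.21), where 7.55% of all genes rose and 16% fell, with 3 rises without replicate 2 of day 0. Cdh1, E-cadherin, measured 8.69, 8.80 and 8.61 at day 11, against 12.20, 12.11 and 12.13 at day 0 (-3.45 ± 0.37, adjusted p = 7.2e-08). The splicing regulator Esrp1 fell by 3.75, the adhesion molecule Epcam by 3.47 and the epithelial factor Grhl2 by 3.21. Grhl2 was not called with the mean of its probe sets (-0.82). Krt8, keratin 8, did not pass (12.53, 12.72 and 12.39 at day 11, against 12.84, 10.86 and 10.76 at day 0, adjusted p = 0.12), and replicate 1 of day 0 was its highest array. Vim (-0.77) and Fn1 (-0.18), usual mesenchymal markers, did not pass either.

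Stress and metabolic genes are set here against all genes, of which 7.55% rose and 16% fell. The falls in the respiratory chain, and the rises and falls in fatty acid oxidation, were near those shares. Immediate early and stress genes gave 15 falls and 2 rises among 26 (median -1.36), with 1 rise without replicate 2 of day 0 or without replicate 3 of day 11, and 15 were lower at day 5 too. Fos measured 10.11, 10.98 and 10.38 at day 11, against 13.43, 13.41 and 13.51 at day 0 (-2.96 ± 0.33, adjusted p = 1.1e-07), and the phosphatase Dusp1 (-2.87), the heat shock gene Hspa1b (-2.24), Fosb (-2.06) and Ier2 (-1.83) fell with it. Glycolysis and hypoxia genes gave 13 falls and 4 rises among 27 (median -0.999). Without replicate 3 of day 11 there were 2 rises, and with cyclic loess and quantile normalization there were 4 and 5 falls. Hk2 (-1.84) and Pdk1 (-1.85) fell, and Pdk1 was not called with the mean of its probe sets (-0.88). Pkm (-1.78) was not called with cyclic loess (-0.77), and Pgam1 (-1.68) was not with cyclic loess (-0.71) or quantile normalization (-0.95). P4ha2, a collagen prolyl hydroxylase, rose by 2.04. In the respiratory chain 6 of 30 genes fell (median -0.60), among them Atp5b (-1.51), Cycs (-1.49), Uqcrc1 (-1.30), Ndufs1 (-1.29) and Cox5a (-1.22). With cyclic loess these 5 changed by -0.53, -0.57, -0.48, -0.57 and -0.25 in that order, and with quantile normalization by -0.76, -0.78, -0.63, -0.70 and -0.51, none of them called. Uqcrc1 was not called with the index either (-0.92), nor Cycs with the mean of its probe sets (-0.96). Under either scaling 0 genes of the list fell, and the list medians were 0.26 and 0.06, so the direction for this list rests on the scaling. Of 27 fatty acid oxidation genes, 2 rose and 4 fell (median 0.05), and 5 rose under either scaling. Lpl, lipoprotein lipase, measured 11.69, 11.92 and 12.63 at day 11, against 9.09, 9.06 and 9.22 at day 0 (2.96 ± 0.23, adjusted p = 8e-10), while Acsl4 (-1.79) and Acadm (-1.69) fell and Decr1 (1.18) was not called without replicate 2 of day 11 (0.91) or with the mean of its probe sets (0.95). Interferon-stimulated genes gave 3 rises and 8 falls among 26 (median -0.50), with Gbp2 (-2.80), Psmb8 (-2.02), Oas1a (-1.78) and Ifitm3 (-1.74) down and Iigp1 up (2.07). Psmb8 was not called with the mean of its probe sets (-0.92).

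Outside the lists, the largest rises included Nell1, a secreted protein of bone and cartilage formation, Asb4, a subunit of ubiquitin ligases in embryonic vessels, and Colec11, a secreted lectin. Nell1 measured 10.86, 11.25 and 11.57 at day 11, against 3.32, 3.56 and 3.55 at day 0 (7.75 ± 0.40, adjusted p = 4.4e-12), and was still at 3.67 on average at day 5. Asb4 measured 11.71, 12.03 and 12.13 at day 11, against 4.50, 5.31 and 5.15 at day 0 (6.97 ± 0.62), and had reached 11.21 at day 5. Colec11 measured 10.28, 10.92 and 10.30 at day 11, against 3.99, 4.03 and 4.08 at day 0 (6.47 ± 0.66). Nell1 was thus late, Asb4 early, and Colec11 in between, at 8.25 on day 5. The largest falls outside the lists were those of L1td1 (-6.82 ± 0.51), an RNA-binding protein of pluripotent cells, Mageb16 (-6.67 ± 0.45) and Ereg (-6.46 ± 0.25), the growth factor epiregulin. Ereg measured 3.74, 4.27 and 4.45 at day 11, against 10.58, 10.12 and 11.14 at day 0, and its day 5 mean of 4.25 was as low as at day 11. Actb, often used as a reference gene, changed by -0.86 ± 0.18 (adjusted p = 0.00031; called without replicate 3 of day 11, at -1.02), with 14.06, 14.20 and 14.61 at day 11, against 15.16, 15.10 and 15.19 at day 0.

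The course in 3F cells was set against those of the other lines by testing the difference between the day 11 minus day 0 changes. These differences share the 3F arrays. Against R1 embryonic stem cells, 272 of 18193 genes differed (1.5%): 50 had a more positive change in 3F (0.275%) and 222 a more negative one (1.22%). The more positive ones were 18.4% of the calls, against 41.2% with arrays centred on their medians and 57 of 190 with quantile normalization. This count depended on single arrays, at 101 without replicate 3 of 3F day 0, 1264 without replicate 3 of 3F day 11 and 1054 without replicate 1 of R1 day 0. In 4 of the 5 named differences with a more positive change in 3F, the gene stood high in R1 cells at day 0. Dpys, a pyrimidine catabolism enzyme, measured 4.89, 5.01 and 4.72 at day 11 and 4.67, 4.44 and 4.01 at day 0 in 3F cells, against 5.26, 5.28 and 4.77 at day 11 and 9.63, 9.70 and 9.18 at day 0 in R1 cells. The difference in change was 4.89 ± 0.39 (adjusted p = 1.1e-07). Aass, of lysine breakdown, differed by 4.65 ± 0.52, with changes of -1.92 in 3F and -6.57 in R1 cells, and Fmr1nb and Khdc3 differed by 3.41 and 3.08. Trbv13-2, a T cell receptor variable segment, went the other way round: it measured 8.91, 9.92 and 6.61 at day 11 and 4.61, 4.69 and 4.92 at day 0 in 3F cells, while all 6 R1 arrays lay between 4.74 and 5.36 (difference 3.95 ± 0.64, adjusted p = 0.0017). The difference was not called when only the arrays of the groups compared were fitted (adjusted p = 0.0725), also with the replicate number as a block (adjusted p = 0.0763). Whether that probe set reads a rearranged receptor gene was not tested.

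Blood cell genes made up most of the named negative differences from R1. Of the 24 macrophage and platelet genes, 7 had a more negative change in 3F and 0 a more positive one (median -2.00, against -0.05 for all genes). This was not particular to 3F among the iPS lines: against 4F, 1 of the 24 had a more negative change and 0 a more positive one (median 0.34). Ptprc, the pan-leukocyte phosphatase CD45, measured 4.17, 5.00 and 4.13 at day 11 and 5.16, 4.73 and 5.45 at day 0 in 3F cells. In R1 cells it measured 8.22, 8.79 and 5.94 at day 11 and 4.70, 4.73 and 4.70 at day 0. The difference was -3.62 ± 0.64 (adjusted p = 0.0036), and it was not called when only the arrays of the groups compared were fitted (adjusted p = 0.0754), nor were those of C1qb (adjusted p = 0.247) and Mpeg1 (adjusted p = 0.131) below. C1qb, a complement chain of macrophages, measured 6.17, 5.86 and 4.48 at day 11 in 3F cells, against 9.75, 10.32 and 5.93 in R1 cells (difference -3.54 ± 0.91, adjusted p = 0.045). Replicate 3 of R1 day 11 was the lowest R1 day 11 array for both genes. C1qb was called in 4 and Mpeg1 (-3.26) in 6 of 12 fits that left out 1 array each, where their differences without a call ran from -3.88 to -2.72 for C1qb and from -3.29 to -2.67 for Mpeg1. The list had 16 called genes without replicate 3 of R1 day 11, and 4 without replicate 1 or 2 of R1 day 11, replicate 3 of 3F day 0 or replicate 1 of 3F day 11. Plek, a platelet and leukocyte protein, differed by -3.57, and Ppbp, a platelet chemokine, by -4.45, with a fall in 3F cells (-4.90) and a change of -0.46 in R1 cells. Of the 29 cardiac transcription factors, 3 had a more negative change in 3F (1.22% of all genes did) and 0 a more positive one: Tbx18 (-2.42), Irx3 (-2.58) and Meis1 (-1.33), named after their values were seen. Over the fits that left out 1 array each, 0 to 7 of them had a more negative change. Of the 26 thick filament genes, 2 had a more negative change and 1 a more positive one. Of the 16 thin filament and 24 calcium handling genes 0 differed. As 1.5% of all genes differed from R1, a count of 0 does not set lists of this size apart.

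**Figure D5:**
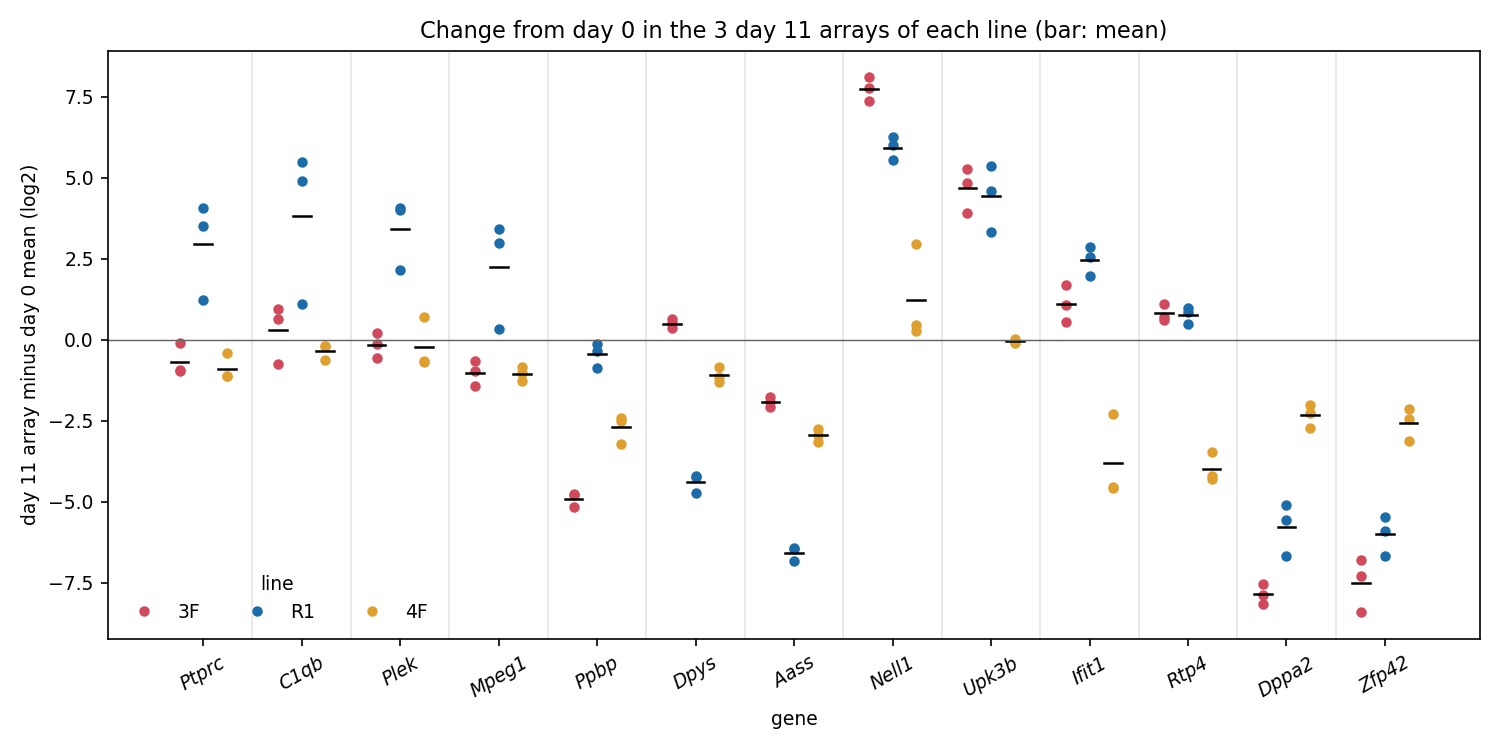
Level of each day 11 array minus the day 0 mean of its line (vertical axis, log2) for 13 genes (horizontal axis) in 3F, R1 and 4F cells, each point 1 array and each bar the mean. Ptprc, C1qb, Plek and Mpeg1 lie near or below 0 in 3F cells and above 0 in R1 cells, and Dppa2 and Zfp42 lie lower in 3F than in 4F cells.

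Against 4F cells, 1167 genes differed (6.41%): 547 had a more positive change in 3F (3.01%) and 620 a more negative one (3.41%). Without replicate 1 of 4F day 11 the count was 849, and without replicate 2 of 3F day 11 it was 1639. With the 3′ over 5′ index as a covariate, 300 more positive and 794 more negative differences were called. That index averaged 1.55 ± 0.23 in 3F and 2.69 ± 0.23 in 4F cells at day 11 (SD, n = 3 each), and fits with it as a covariate are given beside the counts below. Pluripotency genes were lost more deeply in 3F than in 4F cells: 11 of 27 had a more negative change, and 1 (Esrrb) a more positive one (median -1.12, against 0.09 for all genes). Against R1, 0 of the 27 differed in either direction (median -0.06), where 1.5% of all genes did. Dppa2 measured 5.44, 5.79 and 5.16 at day 11 in 3F cells, against 10.83, 11.52 and 11.29 in 4F cells, and its change differed by -5.52 ± 0.56 (adjusted p = 2.4e-06). Zfp42 differed by -4.94, Fgf4 by -4.33 and Tdgf1, an EGF-CFC coreceptor of Nodal, by -4.08. Tdgf1 was not called with the index as a covariate (-1.23), and 4 pluripotency genes were called lower with it. Nanog measured 4.69, 6.36 and 6.28 at day 11 in 3F cells, against a mean of 9.19 in 4F cells (difference -3.02 ± 0.68, adjusted p = 0.0068). Trap1a, a tumour rejection antigen expressed in early embryos, differed by -4.25.

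Several groups of genes had a more positive change in 3F than in 4F cells, whether or not they rose in 3F. Of the 26 interferon-stimulated genes, 3 rose and 8 fell in 3F cells (median -0.50). Against R1, 0 of 26 endothelial genes differed in either direction (median 0.05), where 1.5% of all genes did. Of 26 interferon-stimulated genes, 0 had a more positive and 1 a more negative change than in R1. Nell1 measured 10.86, 11.25 and 11.57 at day 11 in 3F cells, against 3.99, 4.17 and 6.69 in 4F cells (difference 6.53 ± 0.57, adjusted p = 4.0e-07). Replicate 3 of 4F day 11 was the only 4F array above 4.2. Upk3b measured 9.96, 10.38 and 9.03 at day 11 in 3F cells, against 4.89, 4.91 and 5.02 in 4F cells (difference 4.73 ± 0.52, adjusted p = 5.3e-06), where it stayed at its day 0 level. Nepn, nephrocan, differed by 4.58. Of 26 endothelial genes, 9 had a more positive change in 3F than in 4F and 0 a more negative one (median 0.89), with 4 without replicate 1 and 5 without replicate 2 of 4F day 11 and 2 with the index as a covariate. Kdr differed by 2.43 ± 0.67 (adjusted p = 0.024) and Cd34 by 3.24 ± 0.58 (adjusted p = 0.0011). Interferon-stimulated genes gave 13 more positive differences of 26 and 0 more negative (median 1.17), with 7 when the index was a covariate. In the named cases the 4F cells had high levels at day 0. Ifit1 measured 5.54, 6.07 and 6.67 at day 11 and 4.96, 5.16 and 4.86 at day 0 in 3F cells, against 4.61, 4.57 and 6.84 at day 11 and 9.84, 8.75 and 8.87 at day 0 in 4F cells (difference 4.91 ± 0.58, adjusted p = 1.6e-05). In 3F cells alone the change of Ifit1 (1.10) was called, but not without replicates 1 or 3 of day 0 or replicates 2 or 3 of day 11 (0.82 to 1.11), nor with cyclic loess (0.97) or quantile normalization (0.96). Rtp4, an interferon-induced chaperone, differed by 4.80 (6.87, 6.96 and 7.70 at day 11 and 11.45, 11.21 and 10.82 at day 0 in 4F cells). The simple keratins went the other way: Krt8, Krt18 and Krt19, named after their values were seen, differed by -2.45, -2.30 and -2.66, with day 0 means of 11.49, 9.15 and 8.87 in 3F cells, against 8.66, 7.04 and 6.21 in 4F cells.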

How the data were processed

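RNA was hybridised to Affymetrix mouse arrays, and the authors deposited RMA signals on the log2 scale, per the submitters' processing notes; the RMA version and array groupings are not given in the sources used here. RMA corrects background and equalizes the arrays' overall distributions, which assumes similar RNA make-up in all samples. Of 45101 probe sets (64 of them controls), 34945 had 1 gene symbol, 932 several and 9160 none, and 34741 were matched to current names by gene ID, which changed 0 symbols. The brightest probe set over all 27 arrays stood for each of 18193 genes, 9010 of which had several. A linear model with the 9 groups of line and day was fitted with limma 3.58.1 under R 4.3.3, followed by empirical Bayes moderation and Benjamini-Hochberg adjustment over all genes, and was tested on simulated data. Values were tabulated with pandas 2.3.3 and numpy 2.4.6 under Python 3.11.15, and drawn with matplotlib 3.10.9. The 3 arrays per group are labelled biological replicates, and their number limits the precision.

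Alternatives were other scalings of the arrays, averaging of a gene's probe sets, a filter keeping 12280 genes above a signal of 6.50 in at least 3 arrays, other thresholds, only the arrays compared, a variance trend, array weights, the replicate number as a block, the 3′ over 5′ index as a covariate, and each array left out in turn. Same-numbered day 11 and day 0 arrays of 3F deviated from their group means with correlations of 0.09, 0.02 and 0.20, so the numbers were not taken to pair them. The text names the 12 largest rises and the 12 largest falls whose groups did not overlap, up to 5 called members of each of 40 gene lists, the 5 most positive and 5 most negative differences from each other line, and 48 fixed genes, 2 of which were not measured. Genes with provisional symbols were passed over. The comparison, the lists and the genes were chosen with earlier results of these data known. Promoter windows came from RefSeq.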

Additional observations from a re-analysis of the deposited data

Results flagged for a closer look

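The change from day 0 to day 11 differed between 3F and R1 cells in 272 genes and between 3F and 4F cells in 1167, by limma's test of the difference itself. All 20 genes here are those with the most positive or most negative differences.

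Against R1, the more positive changes in 3F were those of Dpys (4.89), Aass (4.65), Trbv13-2 (3.95), Fmr1nb (3.41) and Khdc3 (3.08). Aass measured 4.40, 4.23 and 4.09 at day 11 and 6.42, 6.17 and 5.91 at day 0 in 3F cells, against 4.68, 4.72 and 4.33 at day 11 and 11.01, 11.62 and 10.82 at day 0 in R1 cells. The lines met at day 11 for this gene and stood apart at day 0. The more negative changes were those of Ppbp (-4.45), Ptprc (-3.62), Plek (-3.57), C1qb (-3.54) and Mpeg1 (-3.26). Plek measured 5.79, 6.12 and 5.36 at day 11 and 6.12, 5.55 and 6.09 at day 0 in 3F cells, against 9.27, 9.34 and 7.43 at day 11 and 5.42, 4.96 and 5.43 at day 0 in R1 cells. Here the lines stood apart at day 11, and replicate 3 of R1 was the lowest of its group.

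Against 4F, the more positive changes in 3F were those of Nell1 (6.53), Ifit1 (4.91), Rtp4 (4.80), Upk3b (4.73) and Nepn (4.58). Nepn measured 10.12, 10.21 and 7.61 at day 11 and 4.47, 4.48 and 4.43 at day 0 in 3F cells, while the 6 arrays of 4F cells lay between 4.29 and 4.92. The more negative changes were those of Dppa2 (-5.52), Zfp42 (-4.94), Fgf4 (-4.33), Trap1a (-4.25) and Tdgf1 (-4.08). Zfp42 measured 6.23, 6.72 and 5.12 at day 11 in 3F cells, against 11.55, 11.85 and 10.88 in 4F cells. Trap1a measured 5.94, 6.09 and 5.53 at day 11 in 3F cells, against 10.96, 11.10 and 10.35 in 4F cells, although both lines lay between 11.92 and 13.11 at day 0. The R1 values of Trap1a, 9.14, 8.43 and 8.86 at day 11, fell between those of the iPS lines.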

How the results depend on the processing

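The counts of genes called at day 11 against day 0 stayed within 1.5 times under every alternative: leaving out 1 array gave 4095 to 4525 in all, 1274 to 1615 higher and 2480 to 3179 lower. For day 5 against day 0 those ranges were 2176 to 2308, 873 to 948 and 1277 to 1371, and 603 genes were higher when a gene's probe sets were averaged. For day 11 against day 5 they were 2875 to 3457, 1060 to 1372 and 1503 to 2397, with 1172 lower under cyclic loess and 2958 lower when tested against a 1.2-fold change. The difference from R1 was the least stable: leaving out 1 array gave 101 to 1264 in all, 29 to 222 more positive and 72 to 1042 more negative. It was called in 68 genes at an adjusted p under 0.01 (24 more positive and 44 more negative), 85 against 1.2-fold (27 and 58), 80 with only the arrays compared (22 and 58), 778 with array weights (139 and 639) and 728 with the 3′ over 5′ index (106 and 622). Median centring moved the median difference from R1 to 0.14, against -0.05, with 91 more positive and 130 more negative. Quantile normalization gave 133 more negative. The difference from 4F ranged over 849 to 1639 in all, 370 to 831 more positive and 406 to 1016 more negative when 1 array was left out. It was called in 596 genes at an adjusted p under 0.01 (313 and 283) and in 725 against 1.2-fold (356 more negative), with 909 more positive under array weights and 300 with the index. The cause of these shifts was not tested.

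With the replicate number as a block over all arrays, 4294 genes were called at day 11 against day 0, 361 in the difference from R1 and 1228 in that from 4F. With the block and only the arrays compared, these were 4293 for day 11 against day 0 and 63 for R1 (22 and 41). Replicate 1 of day 11 deviated no more like its own number (0.09) than like replicate 2 of day 0 (0.09). Deviations from a mean of 3 arrays cancel within the group. The values for own and other numbers therefore depend on each other, and no pairing was read from them. Replicate 3 had 0.20, against -0.09 and -0.13 with replicates 1 and 2 of day 0. Replicate 2 had 0.02, against -0.02 and -0.003 with replicates 1 and 3. Laptm5 reversed with the mean of its probe sets (-0.43). Over all named genes and alternatives, 107 values lost and 8 gained a call, and 4595 kept their status as called or not. Called values among these 4595 kept their direction too, but a change of sign in values not called was not counted. Counts of list members moved by over 1.5 times in 127 of the comparisons and stayed within that in 1393. With the index as a covariate, 8 glycolysis, 8 keratin and adhesion, 7 Notch and 5 Wnt genes fell. Dim probe sets limit small changes, and 3 arrays a group limit all.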

Other observations

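Other groups of genes also differed in their course between 3F and 4F cells. Of 23 germ line genes, 8 had a more negative change in 3F (3.41% of all genes did) and 1 a more positive one (3.01% of all genes), with a median of -0.52 against 0.09 for all genes. Mael, of transposon control, averaged 3.83 at day 11 and 7.82 at day 0 in 3F cells, against 8.21 at day 11 and 8.85 at day 0 in 4F cells, a difference in change of -3.35 ± 0.46 (limma, adjusted p = 9.93e-05). Ddx4 differed by -3.19 and Sycp3 by -3.16. Rhox6, a homeobox gene of the X-linked reproductive cluster, moved otherwise: it averaged 7.50 at day 11 and 6.55 at day 0 in 3F cells, against 10.74 at day 11 and 6.76 at day 0 in 4F cells. With the 3′ over 5′ index as a covariate, 3 germ line genes had a more negative change, and 7 or 8 did in every fit that left out 1 array. Against R1, 0 of the 23 had a more negative change in 3F and 1 a more positive one.

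Of 18 erythroid genes, 5 had a more positive change in 3F than in 4F and 0 a more negative one. Hba-x averaged 10.18 at day 11 in 3F cells, against 6.27 in 4F cells (difference 4.02 ± 0.80, adjusted p = 0.00278), and Slc4a1 averaged 8.80 at day 11 in 3F cells, against 5.71 in 4F cells (difference 3.20 ± 0.23, adjusted p = 3.22e-08). Of the stromal matrix genes, 6 of 31 had a more positive change in 3F, among them Dcn, the proteoglycan decorin (4.57), and Lum (3.97). Over the other alternatives the more positive changes numbered 3 to 7 in the erythroid list and 1 to 7 in the stromal one, whose median ran from -1.11 to 0.88. Against R1, 1 of the 18 erythroid genes had a more positive change in 3F and 0 a more negative one. Of the 31 stromal genes, 0 had a more positive and 1 a more negative change than in R1. The median difference of this list from R1 was -1.07, against -0.05 for all genes. Genes in these paragraphs were named after their values were seen.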
